A study of Mus musculus with 63 samples.

Results

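Immediate early genes that are also switched on when tissue is taken apart were followed in sorted cells of the embryonic mouse dorsal cortex. There are 10 of them: Fos, Fosb, Jun, Junb, Egr1, Ier2, Btg2, Atf3, Klf6 and Dusp1. They were chosen by name, as the rows of the table whose gene symbol is 1 of these 10, and they are 10 of the 23078 genes in it. All 10 passed the filter on low values, which kept 15231 genes. They were described in each of 63 libraries and in 19 groups, each of 1 cell type at 1 embryonic day.

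The cells came from C57Bl/6 embryos, and every library is from Ski knock-out tissue, so no value here describes an effect of losing Ski. Newborn neurons (NBN) of E15.5 to E18.5 (13 libraries in 4 groups) carried the Tbr2::GFP reporter with the Ski deletion. Neural stem cells (NSC) of E11.5 to E18.5 (26 libraries in 8 groups) carried Hes5::GFP with the Ski deletion. Basal progenitors (BP) of E12.5 to E18.5 (24 libraries in 7 groups) carried Tbr2::GFP with the Ski deletion, as NBN did. Groups hold 2 libraries (BP E12.5), 3, 4 (NSC E12.5 and E14.5, BP E17.5, NBN E17.5) or 6 (BP E14.5). Tbr2 and Hes5 drive the reporters, GFP protein can outlast its gene in daughter cells, and the labels do not state how NBN and BP were told apart among Tbr2::GFP cells. Nothing in the labels says that replicates came from separate embryos, so p-values measure the spread between libraries, which may be technical.

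Immediate early genes need no new protein to be transcribed, and growth factors, neuronal activity, calcium and cell stress raise their RNA within minutes. Fos, Fosb, Jun and Junb encode subunits of AP-1, a pair of leucine zipper proteins that binds DNA. Egr1 and Klf6 encode zinc finger transcription factors, Atf3 a leucine zipper factor of the stress response, and Ier2 a small nuclear protein. Dusp1 encodes a phosphatase that turns off MAP kinases, and so acts against the signals that raise these genes. Btg2, also known as Tis21, restrains proliferation and in the cortex marks progenitors about to give rise to neurons. Several of these genes are also raised by warm enzymatic dissociation of tissue, and the cells here were dissociated with papain before sorting.

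The promoters of 6 genes are shown first: Fos, Fosb, Jun, Btg2 and Klf6, which were called between cell types, and Dusp1, which was not but varied with Fos between libraries. Each run is the 250 bases before the RefSeq start on GRCm38.p6, 5′ to 3′ on the strand of the gene. Capitals mark the letters TGACNTCA and TGACG, found on either strand. They are a loose and a partial form of TGACGTCA, a sequence bound by ATF and CREB factors. Other sequences bound by AP-1 were not searched for.
Fos, chr12:85473640-85473889 (+): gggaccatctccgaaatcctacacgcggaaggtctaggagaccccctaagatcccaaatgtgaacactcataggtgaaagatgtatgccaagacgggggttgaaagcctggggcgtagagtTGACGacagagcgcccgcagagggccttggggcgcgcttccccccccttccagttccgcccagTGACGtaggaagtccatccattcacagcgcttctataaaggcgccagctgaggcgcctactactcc
Fosb, chr7:19310046-19310295 (-): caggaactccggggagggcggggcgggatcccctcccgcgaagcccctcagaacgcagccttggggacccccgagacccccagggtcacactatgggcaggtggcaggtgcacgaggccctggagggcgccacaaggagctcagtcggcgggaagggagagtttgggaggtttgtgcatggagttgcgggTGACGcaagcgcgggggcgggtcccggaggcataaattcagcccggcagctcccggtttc
Jun, chr4:95052223-95052472 (-): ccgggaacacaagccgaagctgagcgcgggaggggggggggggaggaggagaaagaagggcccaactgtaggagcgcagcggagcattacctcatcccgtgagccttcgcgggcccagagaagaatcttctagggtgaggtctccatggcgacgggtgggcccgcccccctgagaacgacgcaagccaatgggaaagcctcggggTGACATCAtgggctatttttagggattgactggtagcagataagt
Dusp1, chr17:26508473-26508722 (-): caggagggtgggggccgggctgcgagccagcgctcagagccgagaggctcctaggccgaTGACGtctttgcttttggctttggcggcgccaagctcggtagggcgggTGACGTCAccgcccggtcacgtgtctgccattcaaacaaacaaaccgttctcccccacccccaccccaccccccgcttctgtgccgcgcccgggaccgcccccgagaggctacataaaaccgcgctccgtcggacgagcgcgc
Klf6, chr13:5861239-5861488 (+): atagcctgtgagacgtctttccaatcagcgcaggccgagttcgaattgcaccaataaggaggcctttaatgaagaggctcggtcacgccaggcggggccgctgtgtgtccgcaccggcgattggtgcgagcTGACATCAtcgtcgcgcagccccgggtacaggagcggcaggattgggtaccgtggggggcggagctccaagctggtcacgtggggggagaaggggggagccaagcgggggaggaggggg
Btg2, chr1:134079156-134079405 (-): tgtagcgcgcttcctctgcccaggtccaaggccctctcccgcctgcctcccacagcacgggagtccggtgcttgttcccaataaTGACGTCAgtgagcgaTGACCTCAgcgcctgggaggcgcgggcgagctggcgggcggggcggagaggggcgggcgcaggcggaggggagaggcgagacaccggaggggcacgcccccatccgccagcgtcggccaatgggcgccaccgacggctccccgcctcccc

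The set of RefSeq promoters used here held a promoter for 8 of the 10 genes, those other than Egr1 and Ier2. The 8 letters TGACGTCA were in 2 of them, Btg2 and Dusp1, and in 1.55% of 32851 RefSeq promoters of the same length. TGACNTCA, which includes TGACGTCA, was in 4 (Btg2, Jun, Klf6 and Dusp1), against 7.49% of all. TGACG, which overlaps both, was in 6 (Btg2, Atf3, Fosb, Junb, Fos and Dusp1), against 17.8% of all. TATAAA was in Fos alone, 33 to 28 bases before its start, and in 12.4% of all. The CArG box was found in 0 of the 8 windows and in 1.47% of all. Bases outside these windows, and the promoters of Egr1 and Ier2, were not searched for it. These are matches of letters in a window of 250 bases, not sites shown to be bound.

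Values are TPM, a transcript abundance scaled per length, and sum to 999998 to 1000002 in a library. Read counts were not used here, so depth is unknown and no counting interval is given. Between 16823 and 21890 genes were above 0 TPM in a library. Ski had transcript signal in every library, 17.2 to 53.1 TPM, and with no wild type library this does not check the knock-out. All libraries are labelled female, yet the sum of 4 Y-linked genes was at least 10 TPM in 39 of 63 libraries, Xist was at least 10 TPM in 26, and both were in 2. With the Y-linked level as a covariate, the counts of the genes called below were the same in 9 of the 12 comparisons and changed by 1 in the other 3. The libraries carried the genes of their labels, but not those alone. NSC exceeded BP in 12 of 14 genes of radial glia, whose sum was 1462 to 7827 TPM in NSC against 635 to 1067 TPM in BP. Basal progenitor genes were called lower in NSC than in BP in 4 of 12. Their sums overlapped, with 714.6 to 2270 TPM in NSC against 1607 to 2650 TPM in BP. Of 12 basal progenitor genes 12 were lower in NBN than in BP, with sums of 202 to 442 TPM in NBN against 2043 to 2650 TPM in BP on the shared days. Neuron genes summed to 7968 to 10590 TPM in NBN, but also to 979 to 7835 TPM in NSC and 4889 to 7826 TPM in BP. In bulk samples such as these, fewer cells of a type and less RNA per cell cannot be told apart.

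Fos was highest in late neural stem cells and lowest in basal progenitors of the middle days. By mean of log2(TPM + 1), its order ran from NSC E18.5 (75.5 ± 22.3 TPM, SD, n = 3) down to BP E14.5 (3.11 ± 1.24 TPM, n = 6). NSC E16.5 was the next below NSC E18.5, at 135.5 ± 109.5 TPM (n = 3), and its 3 libraries had 9.14, 194 and 204 TPM. No neighbours in this order of 19 groups were apart by more than their summed SDs. Fosb, the close relative of Fos, ran from NSC E17.5 (12.8 ± 5.30 TPM, n = 3) down to BP E13.5 (0.300 ± 0.0877 TPM, n = 3), and was under 1 TPM in 18 libraries. Jun ran from NSC E16.5 (271.5 ± 190.5 TPM, n = 3) down to BP E13.5 (36.5 ± 6.98 TPM, n = 3). Egr1 ran from NSC E18.5 (67.8 ± 27.5 TPM, n = 3) down to NBN E15.5 (1.86 ± 0.499 TPM, n = 3).

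Junb had its lowest mean in NSC E11.5 (0.929 ± 0.758 TPM, n = 3) and its highest in NSC E16.5 (12.2 ± 7.03 TPM, n = 3). Ier2 and Btg2 were both lowest in newborn neurons: Ier2 had 15.8 ± 4.51 TPM in NBN E15.5 (n = 3) against a highest mean of 61.0 ± 6.03 TPM in NSC E13.5 (n = 3), and Btg2 had 10.8 ± 2.02 TPM in NBN E18.5 (n = 3) against 88.4 ± 18.6 TPM in NSC E12.5 (n = 4). Klf6 had its highest mean in newborn neurons, with 35.7 ± 5.32 TPM in NBN E18.5 (n = 3) and 8.73 ± 1.15 TPM in BP E18.5 (n = 3), its lowest group. Dusp1 spanned the narrowest range, from a highest mean of 102 ± 42.8 TPM in NSC E16.5 to a lowest of 39.4 ± 1.95 TPM in NSC E18.5 (n = 3 each). Atf3 was low throughout. It was under 1 TPM in 40 of 63 libraries and listed at 0 in 3 of them, and its highest library had 13.45 TPM (BP E17.5 replicate 3). Of 18 neighbouring pairs in each order, 2 were apart by more than their summed SDs for Btg2, 1 each for Junb and Egr1, and 0 for the other 7 genes.

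**Figure D1:**
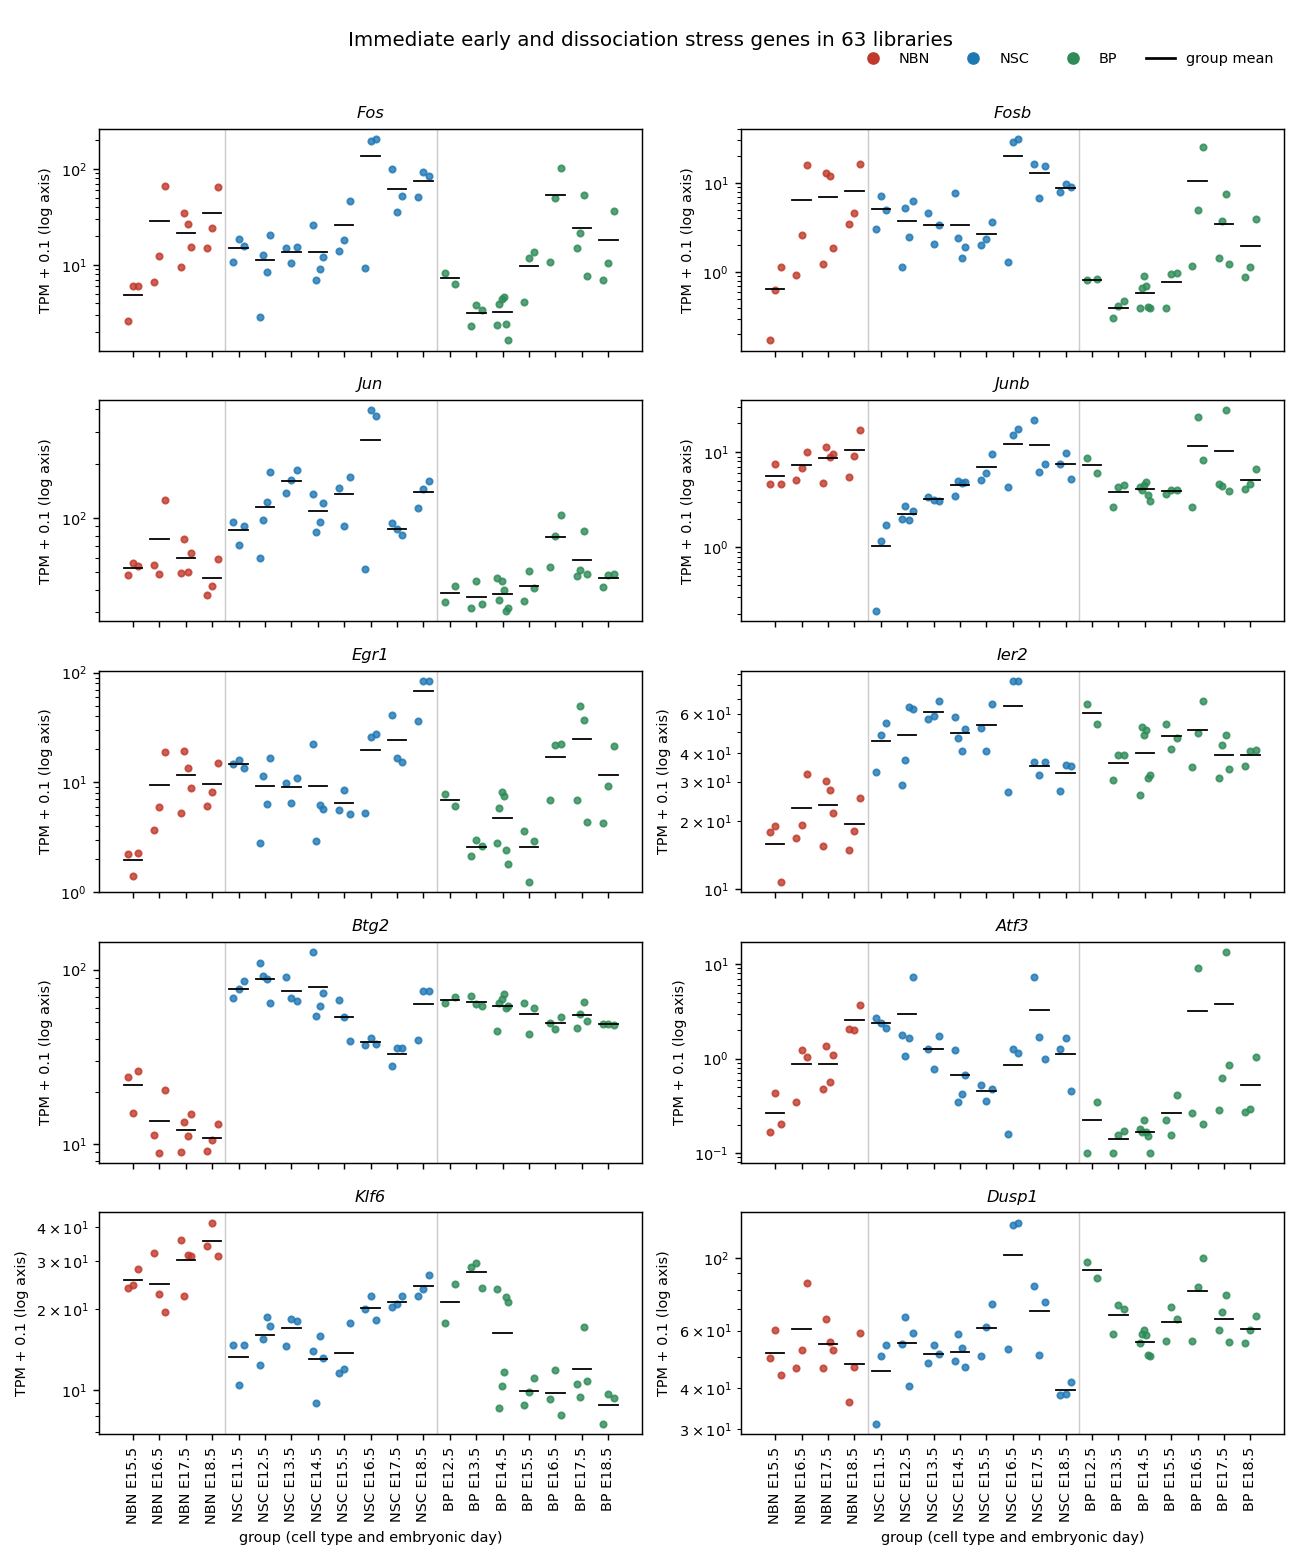
TPM + 0.1 on a log axis for the 10 genes in each of 63 libraries (points) and the mean of each of 19 groups (bars), with NBN, NSC and BP from left to right and days in order within each. Btg2 and Ier2 are lowest in NBN, the mean of Jun is higher in NSC than in BP on every shared day, and Fos, Fosb and Jun split within NSC E16.5.

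Libraries of 1 group could differ more than cell types or days did. In NSC E16.5, replicates 1, 2 and 3 had 1.18, 28.3 and 30.8 TPM of Fosb, and 52.2, 396 and 367 TPM of Jun. Dusp1 had 52.6, 126 and 128 TPM in the same libraries, Egr1 5.19, 26.0 and 27.6 TPM, and Ier2 26.8, 83.3 and 83.7 TPM. Replicate 1 was the low one for each of these genes, while Btg2 (36.9, 40.6 and 37.5 TPM) and Klf6 (19.9, 22.3 and 18.1 TPM) had no such gap. At the same day Fos had 6.59, 12.4 and 66.8 TPM in NBN replicates 1, 2 and 3, and 10.5, 49.2 and 101 TPM in those of BP. Replicate 1 held the least Fos of its group in each of the 3 cell types at E16.5, and nothing in the labels says that a replicate number marks a shared embryo, sort or day. It was also the lowest in meninges and fibroblast genes, with sums of 23.5 TPM in NBN (37.6 and 88.8 TPM in the others), 13.48 TPM in NSC (64.4 and 135.8 TPM) and 16.9 TPM in BP (127.7 and 87.5 TPM). On the first axis of variation of all genes within groups these replicates lay at -1.95, -1.60 and -2.61 SD in NBN, NSC and BP. The part of either in the values was not tested.

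In BP E14.5 the libraries split in another way, Klf6 and Egr1 among the genes that did so. Replicates 1, 5 and 6 had 23.5, 22.0 and 21.0 TPM, and replicates 2, 3 and 4 had 8.50, 10.3 and 11.6 TPM. Egr1 ran the other way in these 6 libraries, with 2.66, 2.32 and 1.70 TPM in replicates 1, 5 and 6 and 5.75, 8.10 and 7.39 TPM in replicates 2, 3 and 4. The same split was present across all genes, with replicates 1, 5 and 6 at -1.54, -1.39 and -1.07 SD on the first axis and replicates 2, 3 and 4 at 2.12, 1.21 and 0.67 SD. Neuron genes deviated by 0.20 to 0.28 on the log2 scale in replicates 1, 5 and 6 and by -0.35 to -0.15 in the others, and genes of G2 and M phase by 0.15 to 0.37 and by -0.45 to -0.13. The labels name no batch for either set, and the part of these differences in Klf6 and Egr1 was not tested.

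Fos, Fosb and Egr1 had the widest spread within groups of the 10 genes. The SD within groups on the log2(TPM + 1) scale was 1.02 for Fos, 0.97 for Fosb, 0.86 for Egr1 and 0.72 for Atf3, against a median of 0.24 over all genes tested. Among the tenth of genes closest in mean level, Fos stood at percentile 99.5, Fosb at 99.2, Egr1 at 98.6, Atf3 at 97.7, Jun at 96.9 and Junb at 94.75. Ier2 (86.3), Btg2 (83.1) and Dusp1 (80.5) were less extreme, and Klf6 was at percentile 63.8. Of the whole variance of Btg2, 7.76% lay within groups, the smallest share of the 10 genes, and of Atf3 51.35% did, the largest. Over all genes tested the median share was 28.2%. Dusp1, with a small SD, still had 41.3% within groups.

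**Figure D2:**
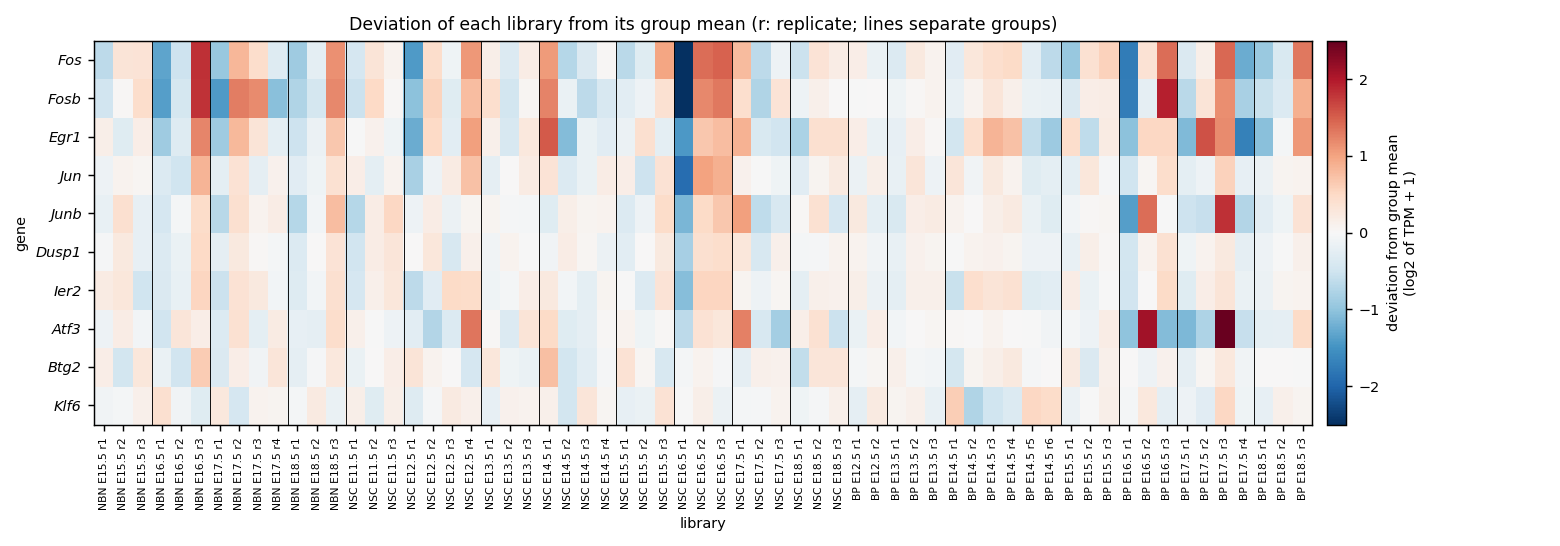
Deviation of each of 63 libraries (columns) from its group mean, in log2(TPM + 1), for the 10 genes (rows), with lines between groups. NSC E16.5 replicate 1 lies below its group mean for all 10 genes and BP E17.5 replicate 3 above it for all 10.

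Most of the genes deviated together. Over the 63 libraries, the correlation between deviations from the group mean was above 0 for 39 of the 45 pairs of genes, with a median Pearson r of 0.49, against a median of 0.03 over all pairs of genes tested. Fos and Fosb were closest (r = 0.93), and Fos had r = 0.83 with Jun, 0.80 with Dusp1 and 0.80 with Egr1. Atf3 was closest to Junb (r = 0.76). Btg2 and Klf6 stood apart: the highest r of Btg2 was 0.43, with Egr1, and the lowest r of all was that of Ier2 with Klf6 (-0.255). The first axis through the 10 scaled deviations held 56.05% of their variance. Libraries of 1 group share a mean, and each r is given as a description.

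**Figure D3:**
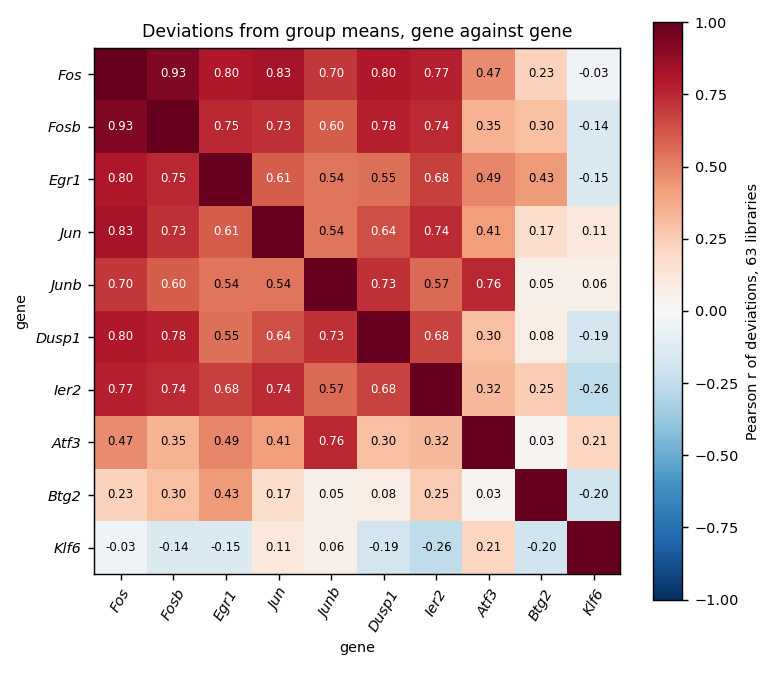
Pearson r between the deviations from the group means of each pair of the 10 genes, over 63 libraries, with the value in each cell. Fos, Fosb, Egr1, Jun, Junb, Dusp1 and Ier2 form a block with every r at 0.54 or above, and Btg2 and Klf6 lie outside it.

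The mean deviation of the 10 genes was lowest in NSC E16.5 replicate 1 (-1.25 on the log2 scale, 10 of 10 genes below their group mean) and highest in BP E17.5 replicate 3 (1.00, 10 of 10 above). Of the gene lists beside it, other immediate early genes followed it most closely, with r = 0.76 over the 63 libraries and 0.695 without those 2 libraries. Heat shock and dissociation genes had r = 0.58 and 0.45, meninges and fibroblast genes 0.55 and 0.44, and endothelium and pericyte genes 0.41 and 0.26, each with and without the 2 libraries. The first axis of variation of all genes within groups had r = 0.46 with it. The 10 single genes whose deviations were most like the mean deviation of the 10 were Klf2 (r = 0.80), Ppp1r15a (0.79), Csrnp1 (0.70), Nr4a1 (0.69), Cyr61 (0.69), Col6a2 (0.68), Tnfrsf1a (0.67), Col1a1 (0.67), Col6a1 (0.67) and Gadd45b (0.665). Of these, Col6a2, Col1a1 and Col6a1 encode collagen chains, which fibroblasts make, and averaged 0.944, 3.99 and 1.08 TPM.

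Fos, Fosb and Jun were higher in neural stem cells than in basal progenitors. Over the 7 shared days, Fos ran from 2.79 TPM through a median of 18.1 to 204 TPM in 23 NSC libraries, and from 1.53 through 7.21 to 101 TPM in 24 BP libraries. The libraries of the cell types did not overlap on 4 of the 7 days, and did on the others. The difference was 1.41 ± 0.29 (log2, SE; adjusted p = 7.95e-05 by limma, adjusted over all genes tested). Fosb had 1.04, 4.52 and 30.8 TPM as its lowest, median and highest in NSC and 0.204, 0.789 and 25.2 TPM in BP, with no overlap on 5 days and a difference of 1.42 ± 0.28 (adjusted p = 3.47e-05). Jun had 52.2, 122 and 396 TPM in NSC and 30.4, 44.7 and 104 TPM in BP, with no overlap on 5 days and a difference of 1.46 ± 0.14 (adjusted p = 5.43e-12). Jun differed least at E17.5, where NSC had 93.7, 86.8 and 80.9 TPM and BP 47.5, 51.7, 85.1 and 48.6 TPM.

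In this comparison 3 of the 10 genes were called higher and 0 lower, where a call is an adjusted p under 0.05 and a log2 difference of at least 1 in size. Of all genes tested 3.03% were called, 2.56% higher and 0.466% lower. Egr1 was higher on 7 of 7 days, but its difference of 0.94 ± 0.25 (adjusted p = 0.00162) was under the size required. It reached 1.08 without E16.5 and 1.02 without E17.5. Atf3 had 0.53 ± 0.21 (adjusted p = 0.0336) and Klf6 0.33 ± 0.09 (adjusted p = 0.00215). Dusp1 had -0.22 ± 0.08 (adjusted p = 0.0283) and was lower in NSC on 5 of 7 days, but was under the size required. Junb (0.07), Ier2 (0.09) and Btg2 (0.00) were not called. For Klf6 that mean joined opposite days: NSC minus BP was -0.66 at E13.5 and 1.37 at E18.5.

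Related gene lists were compared in the same way. By limma 0 of 13 other AP-1 and ATF factors were called (9 had an unadjusted p under 0.05) and 0 of 17 heat shock and dissociation genes (7 had one). Of 40 other immediate early genes 4 were called, all higher in NSC, where 3.03% of all genes tested were called. The 3 of smallest p were Zfp36l1 (2.63 ± 0.13), whose protein degrades AU-rich RNA, Cyr61 (3.59 ± 0.20), a secreted matrix protein, and Ctgf (2.24 ± 0.13), another matrix protein. The median differences of the 3 lists were 0.158, 0.103 and 0.0977, against 0.00185 over all genes tested. Interneuron genes moved with the comparison, since 10 of 10 were higher in NSC and their sum was 144 to 1019 TPM in NSC against 12.3 to 68.2 TPM in BP. Their part in the AP-1 result was not tested.

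Newborn neurons differed from basal progenitors in Btg2, Ier2 and Klf6, while Fos, Fosb, Jun and Junb were not called. Btg2 had 8.81, 13.0 and 26.2 TPM as its lowest, median and highest in 13 NBN libraries, against 42.5, 49.7 and 65.3 TPM in 13 BP libraries of the same 4 days. By day it averaged 21.8, 13.4, 12.01 and 10.8 TPM in NBN at E15.5, E16.5, E17.5 and E18.5, against 55.9, 49.4, 54.6 and 48.5 TPM in BP. The highest NBN library lay below the lowest BP library. The difference was -1.85 ± 0.12 (adjusted p = 1.96e-18).

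Ier2 was also lower in newborn neurons. It had 10.7, 19.02 and 32.3 TPM as lowest, median and highest in NBN, against 30.9, 41.9 and 68.0 TPM in BP, a difference of -1.10 ± 0.15 (adjusted p = 1.49e-08). Klf6 was higher, with 19.4, 31.2 and 41.6 TPM in NBN against 7.41, 9.56 and 17.0 TPM in BP and a difference of 1.44 ± 0.12 (adjusted p = 8.78e-15). Within each of the 4 days, no NBN library overlapped a BP library for any of these 3 genes. Of all genes tested, 10.1% were higher and 10.9% lower in this way.

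Of all genes tested 10.8% were called in NBN against BP, 5.75% higher and 5.09% lower, and of the 10 genes 1 was called higher and 2 lower. Fos had -0.22 ± 0.39, Fosb 0.36 ± 0.37, Jun 0.06 ± 0.19 and Egr1 -0.45 ± 0.33. Dusp1 had -0.33 ± 0.11 (adjusted p = 0.00941 by limma), under the size required. Of 13 other AP-1 and ATF factors 1 was called, Fosl2 (1.82 ± 0.17), a relative of Fos. Of 40 other immediate early genes 5 were called higher and 3 lower, and those of smallest p were Gadd45g (-1.68 ± 0.11), a growth arrest gene, Plk2 (2.87 ± 0.20), a kinase, and Dusp6 (2.13 ± 0.15), a phosphatase of ERK. Of 17 heat shock and dissociation genes 0 were called by limma, and 7 had an unadjusted p under 0.05. Genes of G2 and M phase were lower in NBN in 15 of 15, with sums of 63.1 to 152 TPM in NBN against 309 to 923 TPM in BP, and their part in the Btg2 and Ier2 results was not tested. Microglia and macrophage genes were higher in NBN in 12 of 14, with sums of 5.66 to 199.9 TPM in NBN against 3.71 to 26.45 TPM in BP, and their part in the Klf6 result was not tested. By day from E15.5 to E18.5, the microglia and macrophage sums in NBN were 5.66 to 9.185, 12.1 to 132.2, 46.8 to 174.2 and 145.2 to 199.9 TPM. The Klf6 difference between NBN and BP on these days was 1.29, 1.25, 1.29 and 1.91.

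Newborn neurons were lower than neural stem cells in 6 of the 10 genes. Of all genes tested 8.65% were called, 2.55% higher and 6.11% lower. Fos had 2.48, 15.0 and 66.8 TPM as lowest, median and highest in 13 NBN libraries, against 9.14, 50.9 and 204 TPM in 12 NSC libraries, a difference of -1.73 ± 0.39 (adjusted p = 0.000204). Jun had 37.2, 54.3 and 126 TPM in NBN against 52.2, 129 and 396 TPM in NSC, a difference of -1.23 ± 0.19 (adjusted p = 4.16e-07). Libraries overlapped for Fos at E16.5 and E18.5 and for Jun at E16.5, where NSC replicate 1 was the low one. Egr1 differed by -1.51 ± 0.33 (adjusted p = 0.000141) and was farthest apart at E18.5, with 5.93, 8.001 and 14.8 TPM in NBN against 36.1, 83.4 and 83.9 TPM in NSC.

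Btg2 was the gene with no overlap on any of the 4 days between NBN (8.81 to 26.2 TPM) and NSC (28.0 to 75.4 TPM), and differed by -1.65 ± 0.12 (adjusted p = 3.68e-16). Of all genes tested 8.71% were lower and 4.12% higher without overlap on every day. Ier2 differed by -1.09 ± 0.15 (adjusted p = 3.74e-08). Fosb differed by -1.06 ± 0.37 (adjusted p = 0.0146) and was near the size required: without E16.5 it had -0.94, and 7 of 25 libraries, left out singly, ended its call, with -0.88 without NBN E16.5 replicate 1 as the smallest. Klf6 (0.54 ± 0.12, adjusted p = 0.000188) was higher in NBN on 4 of 4 days, but was under the size required and so not called. Dusp1 (-0.25 ± 0.11), Junb (-0.18 ± 0.24) and Atf3 (-0.09 ± 0.28) were not called either. Both comparisons of newborn neurons use the same NBN libraries, and genes of G2 and M phase were lower in NBN than in NSC in 15 of 15.

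The lists beside them moved less. Of 13 other AP-1 and ATF factors 1 was called higher in NBN (Fosl2, 1.15 ± 0.17) and 1 lower (Atf5, -1.03 ± 0.09). Of 40 other immediate early genes 2 were called higher and 5 lower, led by Zfp36l1 (-2.26 ± 0.17), and of 17 heat shock and dissociation genes 1 lower (Bag3, -1.16 ± 0.14). The median differences were -0.12, -0.17 and -0.09, against -0.06 over all genes tested and -1.08 for the 10 genes. Interneuron genes, 9 of 10 lower and 1 higher in NBN, had a median sum of 107.9 TPM (at most 332.5 TPM) in NBN against 292.3 TPM (at most 541 TPM) in NSC, and their part was not tested.

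**Figure D4:**
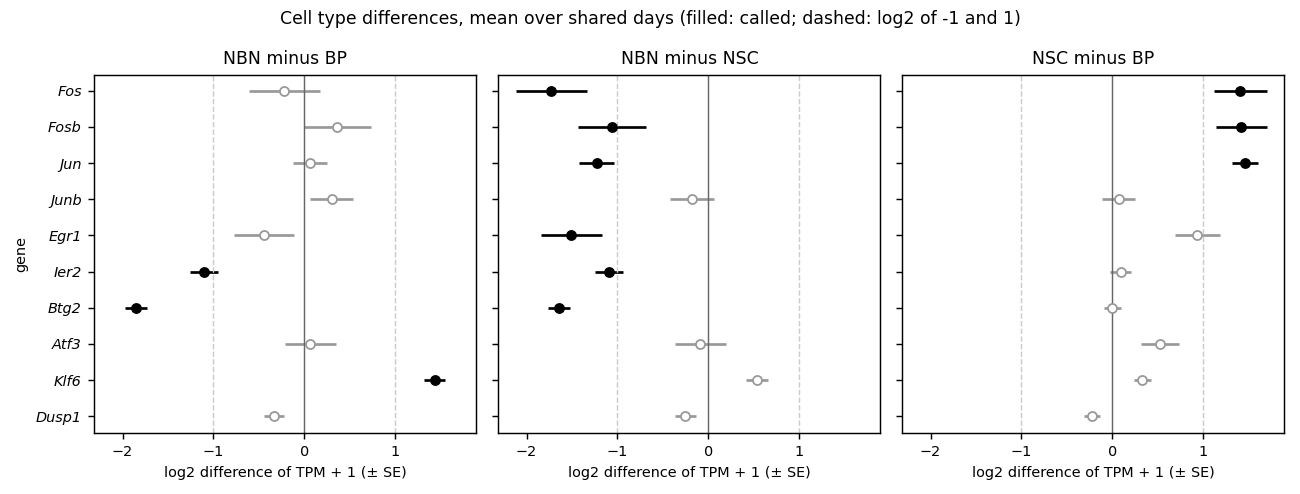
Log2 differences of TPM + 1 between cell types, averaged over shared days, for the 10 genes (points, bars ± SE), with called genes filled and dashed lines at -1 and 1. Btg2 and Ier2 are lower in NBN than in either progenitor, and Fos, Fosb and Jun are higher in NSC than in both other cell types.

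Across the days, Fos, Fosb, Junb and Egr1 rose and Btg2 fell in neural stem cells. Slopes through the 8 group means are given as the change from E11.5 to E18.5, and 5 of the 10 genes were called. Of all genes tested 23.0% were called, 14.8% rising and 8.17% falling. Junb averaged 0.929, 2.15, 3.10, 4.40, 6.83, 12.2, 11.8 and 7.47 TPM from E11.5 to E18.5, a change of 2.45 ± 0.37 (log2, SE; adjusted p = 9.98e-08). Its means were in the order of the days up to E16.5. Fos averaged 15.0, 11.01, 13.51, 13.4, 25.9, 135.5, 61.9 and 75.5 TPM, a change of 3.02 ± 0.60 (adjusted p = 1.92e-05).

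Egr1 rose by 1.95 ± 0.51 (adjusted p = 0.000771) in NSC, and that call rested on the last day: without E18.5 the change was 0.67 (adjusted p = 0.276). Fosb rose by 1.54 ± 0.57 (adjusted p = 0.0165), and had 1.23 (adjusted p = 0.0738) without E17.5. Btg2 averaged 77.5, 88.4, 75.2, 79.1, 53.2, 38.4, 33.0 and 63.5 TPM, a change of -1.05 ± 0.19 (adjusted p = 3e-06). It was high again at E18.5 in 2 of 3 libraries (75.4 and 75.3 TPM, and 39.7 TPM in replicate 1), and its change was -0.87 without that replicate, -0.93 without E16.5 and -0.79 without E17.5, each under the size required. With the last day minus the first in place of the slope, Btg2 had -0.34 (adjusted p = 0.262) and Fosb 0.78 (adjusted p = 0.409) in NSC. Jun, Ier2, Atf3, Klf6 and Dusp1 were not called, with changes of 0.39, -0.43, -0.51, 0.72 and 0.28.

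In basal progenitors, from E12.5 to E18.5, Fos and Egr1 rose and Klf6 fell, so that 3 of the 10 genes were called, against 11.3% of all genes tested (6.9% rising, 4.39% falling). Klf6 averaged 21.1, 27.3, 16.1, 9.83, 9.66, 11.9 and 8.73 TPM, a change of -1.38 ± 0.21 (adjusted p = 3.26e-07). Its E12.5 and E13.5 libraries (17.6 to 29.5 TPM) all lay above those of E15.5 to E18.5 (7.41 to 17.0 TPM). The E14.5 libraries between them fell in both ranges, and the share of all genes that part in this way was not counted. Fos averaged 7.14, 3.06, 3.11, 9.67, 53.7, 24.3 and 17.9 TPM, a change of 2.28 ± 0.67 (adjusted p = 0.00498). Egr1 rose by 1.61 ± 0.57 (adjusted p = 0.0198), and was not called without BP E12.5 replicate 1, BP E12.5 replicate 2, BP E18.5 replicate 3 (1.26, adjusted p = 0.0945) or E17.5 (1.23, adjusted p = 0.0877). With the last day minus the first in place of the slope, Fos had 0.89 (adjusted p = 0.523) and Egr1 0.43 (adjusted p = 0.749) in BP, and the highest mean of Fos was at E16.5.

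In newborn neurons, from E15.5 to E18.5, Fos rose by 2.22 ± 0.75 (adjusted p = 0.035) and Fosb by 2.17 ± 0.72 (adjusted p = 0.0295), 2 of the 10 genes, against 4.74% of all genes tested (3.3% rising, 1.44% falling). Fos averaged 4.77 ± 1.98, 28.6 ± 33.3, 21.3 ± 11.3 and 34.7 ± 26.7 TPM on these days (n = 3, 3, 4 and 3), and Fosb 0.543 ± 0.478, 6.35 ± 8.15, 6.88 ± 6.30 and 8.02 ± 7.06 TPM. The 3 libraries of E15.5 had 2.48, 5.85 and 5.97 TPM of Fos, below every later NBN library (6.59 TPM or more). The share of all genes that part in this way was not counted. The Fos call ended without any 1 of 6 of the 13 libraries and the Fosb call without any 1 of 4, with lowest changes of 1.70 and 1.63 without NBN E18.5 replicate 3. Btg2 changed by -0.86 ± 0.23, under the size required, with the smallest adjusted p of the 10 genes by limma (0.00718). It was called without NBN E15.5 replicate 2 (-1.07). By a test of any difference between the days, in place of a slope, 5 of the 10 genes were called in NSC (39.1% of all), 4 in BP (16.0% of all) and 0 in NBN (4.59% of all), where 4 had an unadjusted p under 0.05. In NSC this added Dusp1 (range of day means 1.24 on the log2 scale, and 0.75 without E16.5, under the size required) and lost Fosb. In BP it added Fosb (2.40, adjusted p = 0.0462), a call that ended in 19 of 24 omissions of a single library, with 1.52 (adjusted p = 0.276) without BP E16.5 replicate 3.

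Markers of other cell types rose over the same days. Microglia and macrophage genes rose in 12 of 14 in NSC, with sums of 4.43 to 9.015 TPM at E11.5 and 10.1 to 74.0 TPM at E18.5, and in 13 of 14 in NBN, with 5.66 to 9.185 TPM at E15.5 and 145.2 to 199.9 TPM at E18.5. In BP 0 of 14 did so by limma (0 at an unadjusted p under 0.05), while endothelium and pericyte genes rose in 9 of 12, with sums of 4.32 to 6.62 TPM at E12.5 and 13.3 to 32.0 TPM at E18.5. Meninges and fibroblast genes rose in 6 of 9 in NSC and 4 of 9 in BP. Without the 3 libraries highest in endothelium genes (NSC E17.5 replicate 1, BP E16.5 replicate 2 and BP E17.5 replicate 3), 5 of the 10 genes were called by slope in NSC and 3 in BP, and no NBN library was among the 3. Neuron genes rose in 7 of 12 in NSC, where radial glia genes rose in 3 of 14 and fell in 9, while in BP neuron genes fell in 6 of 12 and erythroid genes rose in 5 of 9. Genes of G2 and M phase fell in 15 of 15 in NSC and in 7 of 15 in BP. The part of these cells and of the cell cycle in the slopes was not tested, and leaving out 3 libraries cannot decide it.

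Among related genes, 3 of 13 other AP-1 and ATF factors rose in NSC (14.8% of all genes tested rose), Fosl2 (2.39 ± 0.26), Jund (1.51 ± 0.21) and Atf7 (1.18 ± 0.20), and 2 of 13 in BP (6.9% of all), Atf7 (1.29 ± 0.23) and Fosl2 (1.04 ± 0.30). Of 40 other immediate early genes 11 rose and 4 fell in NSC, 6 rose and 6 fell in BP, and 5 rose and 3 fell in NBN, that is 15, 12 and 8 called of 40, where 23.0%, 11.3% and 4.74% of all genes tested were called. Nr4a3, an orphan nuclear receptor, rose by 4.93 ± 0.26 in NSC and by 4.81 ± 0.29 in BP. Gadd45a, a growth arrest and DNA damage gene, fell by 2.34 ± 0.19 on the log2 scale in NSC and by 2.25 ± 0.22 in BP, and its relative Gadd45g fell by 1.69 ± 0.22 in NBN. Heat shock and dissociation genes had no riser: in NSC 2 of 17 fell (Hspd1, -1.18 ± 0.13, and Hspa5, -1.16 ± 0.14), in BP 1 fell (Hspa5, -1.05 ± 0.16), and in NBN 0 were called by limma, with 2 at an unadjusted p under 0.05.

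The time courses of Junb and Klf6 differed between neural stem cells and basal progenitors. Over E12.5 to E18.5 the change in NSC minus that in BP was 1.51 ± 0.56 for Junb (adjusted p = 0.0351) and 2.02 ± 0.28 for Klf6 (adjusted p = 3.79e-07), 2 of the 10 genes, against 10.5% of all genes tested (6.86% with a positive and 3.66% with a negative difference). Klf6 averaged 15.9 ± 2.71 TPM in NSC and 21.1 ± 4.87 TPM in BP at E12.5, and 24.2 ± 2.20 TPM in NSC and 8.73 ± 1.15 TPM in BP at E18.5. Libraries did not overlap on the last 4 days, when NSC was the higher, nor at E13.5, when it was the lower. The share of all genes that part on these days was not counted. Junb averaged 2.15 ± 0.355 TPM in NSC and 7.26 ± 1.92 TPM in BP at E12.5, and 7.47 ± 2.28 TPM in NSC and 5.04 ± 1.39 TPM in BP at E18.5. Marker lists moved with this comparison: by the same slope difference 10 of 12 neuron genes and 11 of 14 microglia and macrophage genes were called positive, and 7 of 14 radial glia genes negative. Their part in the Junb and Klf6 results was not tested. The Junb call ended without any 1 of 7 of 47 libraries, with 1.29 (NSC E17.5 replicate 1 left out) as the smallest difference. For NBN minus BP and NBN minus NSC, 0 of the 10 slopes were called to differ by limma, against 2.4% (1.02% positive, 1.38% negative) and 5.44% (0.854% positive, 4.58% negative) of all genes tested, and 1 and 2 of the 10 genes had an unadjusted p under 0.05. Btg2 came closest, with -0.99 ± 0.33 for NBN minus NSC (adjusted p = 0.0439). It was called without any 1 of 10 of the 25 libraries, with -1.27 (NSC E18.5 replicate 1 left out) as the largest difference. Ier2 was called without NSC E16.5 replicate 1 (1.25).

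Atf3 and Junb were high in the 3 libraries highest in endothelium genes. BP E17.5 replicate 3 had 13.45 TPM of Atf3 and 27.6 TPM of Junb, and the other 3 libraries of its group had 0.188 to 0.746 TPM and 3.83 to 4.56 TPM. Its 14 endothelium and pericyte genes summed to 208 TPM, against 23.3 to 35.6 TPM in the others. BP E16.5 replicate 2 had 8.99 TPM of Atf3 and 23.5 TPM of Junb with an endothelium sum of 207 TPM, where replicates 1 and 3 had 0.165 and 0.102 TPM of Atf3 with sums of 26.2 and 35.85 TPM. NSC E17.5 replicate 1 had 7.15 TPM of Atf3 and 21.7 TPM of Junb, with an endothelium sum of 60.8 TPM, a microglia sum of 436 TPM and a meninges sum of 299 TPM. NSC E12.5 replicate 4 had 7.21 TPM of Atf3 with an endothelium sum of 11.5 TPM. Erythroid genes stood apart in both of these NSC libraries, with sums of 9495 TPM in NSC E17.5 replicate 1 (233 and 270 TPM in the others of its group) and 4853 TPM in NSC E12.5 replicate 4 (12.2 to 262 TPM in the others).

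Over 63 libraries, the deviations of Atf3 had r = 0.74 with those of the endothelium list and 0.435 over the 60 libraries left without these 3 (NSC E17.5 replicate 1, BP E16.5 replicate 2 and BP E17.5 replicate 3). Junb had 0.66 and 0.36, and Fos 0.24 and 0.10. With heat shock and dissociation genes Atf3 had r = 0.83 over 63 libraries and 0.68 over 60, and Junb 0.65 and 0.41. BP E17.5 replicate 3 and BP E16.5 replicate 2 deviated by 0.78 and 0.53 (log2) in these genes, more than any other library. NSC E17.5 replicate 1 deviated by 0.06. The part of endothelial cells, erythroid cells and dissociation stress in the Atf3 and Junb values was not tested.

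**Figure D5:**
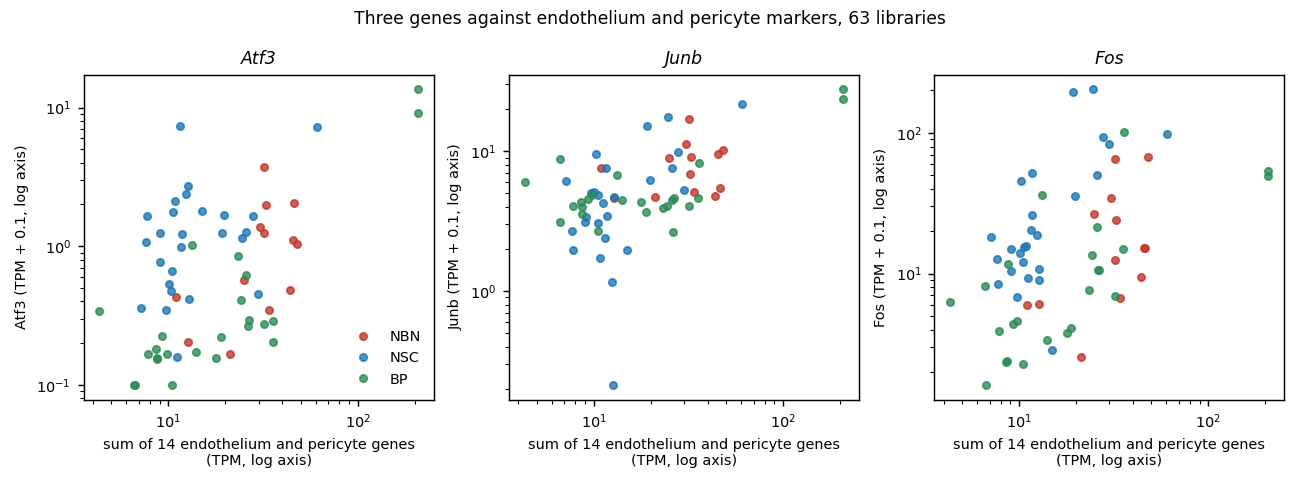
Atf3, Junb and Fos (TPM + 0.1, log axes) against the summed TPM of 14 endothelium and pericyte genes (log axis), with 1 point for each of 63 libraries coloured by cell type. The BP libraries with sums of 207 and 208 TPM are the 2 highest of all in Atf3 and in Junb, but not in Fos.

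Btg2, the gene with the smallest share of its variance within groups, was described across group means as well. Over the 19 group means, the 5 genes whose levels were most like those of Btg2 were Clic4 (r = 0.98), Clic1 (0.98), Llgl1 (0.98), Tead2 (0.975) and Gli2 (0.97), with mean levels of 26.7 to 153 TPM. These genes share the 19 groups and the 3 cell types with Btg2, and NBN held its 4 lowest means.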

How the data were processed

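RNA was measured in 63 libraries of papain-dissociated, sorted dorsal cortex cells, with TruSeq v2 libraries read as single 50 base reads, per the labels' protocols. The authors deposited TPM per gene. The submitters' processing notes name kallisto 0.43.0, GRCm38.p2 and mm10. TPM keeps no depth, so precision rests on the spread between libraries.

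All tests used log2(TPM + 1), which understates changes of low genes. A gene entered the tests if it reached 1 TPM in 3 or more libraries (15231 of 23078 did). In limma 3.58.1 (R 4.3.3), a single model with 19 group means and trended moderated variances gave 12 comparisons. Cell types were compared as mean differences over shared days, and slopes as least-squares lines through group means. P-values were adjusted by Benjamini-Hochberg over all genes tested. Calls required an adjusted p below 0.05 together with a log2 change of 1 or more in size. The procedure was run on simulated data with independent normal noise for each gene and library. Such noise holds no variation shared between genes or libraries, so that run cannot check the calls against shared variation. Deviations are log2(TPM + 1) minus the group mean, and figures used matplotlib 3.10.9.

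The 10 genes and all lists were chosen with earlier results of these data known. Named are the 10 genes, up to 3 called genes of smallest adjusted p in a list with the largest opposite one, and the genes most alike by correlation. The 3 libraries highest in endothelium genes are those deviating by more than 0.8 on the log2 scale. Alternatives covered pseudocounts, filters, scaling, library weights, a replicate block, left-out libraries and days, and a Y-linked covariate. Promoters are from RefSeq, and groups follow the labels.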

Additional observations from a re-analysis of the deposited data

Results flagged for a closer look

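Among the 5 groups of 4 to 6 libraries, 5 of 50 combinations of gene and group held a library far from the others by Dixon's test at 95%, where chance gives about 1 in 20. Of these 5, 3 were in BP E17.5 replicate 3, with 85.1 TPM of Jun (47.5 to 51.7 TPM in the others), 27.6 TPM of Junb (3.83 to 4.56 TPM) and 13.45 TPM of Atf3 (0.188 to 0.746 TPM). NSC E14.5 replicate 1 had 7.71 TPM of Fosb, where the others had 1.34 to 2.28 TPM. NSC E12.5 replicate 4 had 7.21 TPM of Atf3, where the others had 0.967 to 1.69 TPM. The time course differed between NSC and BP, by the test of the slope difference itself, for Junb (1.51) and Klf6 (2.02).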

How the results depend on the processing

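Of the 10 genes, the number called moved by over 1.5 times, or to or from 0, under these alternatives, and no called value changed sign under any alternative run. In NSC against BP 3 became 5 with a pseudocount of 0.1, and in NBN against BP and NBN against NSC no alternative moved the count that far. The slope in NSC went from 5 calls to 3 with the last day minus the first and without E17.5. The slope in BP had 3, and 5 with a pseudocount of 0.1, with library weights, without the 8 libraries beyond 1.5 SD on the first axis, and without E18.5, and 1 with the last day minus the first. The slope in NBN had 2, and 4 with a pseudocount of 0.1, with library weights, without E16.5 and without the 3 libraries highest in endothelium genes, none of them NBN, 1 with no filter, with a mean of at least 5 TPM and without E18.5, and 0 with a pseudocount of 5 and with quantile scaling. The slope of NSC minus that of BP had 2, and 1 with a pseudocount of 5, no filter, quantile scaling, the last day minus the first, and without the first-axis libraries. The slope of NBN minus that of BP had 0, and 1 with library weights. The slope of NBN minus that of NSC had 0, and 1 with a pseudocount of 0.1, the last day minus the first, without E17.5 and without the endothelium libraries, and 2 with library weights and without the first-axis libraries. The test of any day had 5 in NSC, and 8 without the first-axis libraries. In BP it had 4, and 7 with library weights and without the first-axis libraries. In NBN it had 0, and 1 with a pseudocount of 0.1, without E17.5, without the endothelium libraries and with only the libraries compared, 3 without the first-axis libraries and without E16.5, and 5 with library weights. The cause was not tested. Leaving out 1 library at a time gave 2 to 5 for the slope in BP (5 without BP E17.5 replicate 1), 0 to 3 for that in NBN (0 without NBN E15.5 replicate 1), 1 to 2 for NSC minus BP slopes (1 without NSC E17.5 replicate 1), 0 to 1 for NBN minus NSC slopes (1 without NSC E15.5 replicate 1), and 5 to 8 in NSC (8 without NSC E16.5 replicate 1) and 0 to 1 in NBN (1 without NBN E15.5 replicate 2) for any day. Where several libraries gave the same count, only 1 of them is named here. For NBN minus NSC slopes, Btg2 was called in 10 of 25 such omissions. Fosb in NSC against BP had 0.70 with a pseudocount of 5, Ier2 in NBN against BP -0.96, and Ier2 in NBN against NSC -0.96, all under the size required. The alternatives that leave out E16.5, E17.5 or the endothelium libraries, and the Y-linked covariate, were chosen after seeing the data. With a mean of at least 5 TPM Fosb and Atf3 were not tested.

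Same-numbered libraries of 1 day deviated together (r over 0.1) in 12 of 13 pairs of NBN and BP, 6 of 12 of NBN and NSC and 7 of 21 of NSC and BP, with medians of 0.369, 0.113 and -0.0344. Differently numbered libraries did so in 6 of 30, 9 of 27 and 23 of 59 pairs, with medians of -0.14, -0.0561 and -0.0134. This hints at shared numbers for NBN and BP, from the data only. Since not every pair exceeded 0.1, the values reported ignore such pairing. A replicate block, with 1 effect per number over all groups, cannot test pairing within a day. It ended no call, and gave 1 in place of 0 for NBN minus NSC slopes and for any day in NBN. No other count moved by over 1.5 times. It added Egr1 for the NBN slope (1.78, adjusted p = 0.0359) and Ier2 for NBN minus NSC slopes (1.08, adjusted p = 0.042). For any day it added Fosb and Jun in NSC (adjusted p = 0.0262 and 0.0268) and Fos in NBN (0.0486). The median of all genes shifted by over 0.1 with scaling for the slope of NBN minus BP (-0.116, and 0.00608 with quantile scaling), NBN minus NSC (-0.122, and 0.0405) and NSC (0.0887, and -0.0683).

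Of all genes, a pseudocount of 5 called 195 (461 with 1) in NSC against BP, 870 (1652) in NBN against BP, 605 (1318) in NBN against NSC, 2132 (3498), 834 (1719) and 316 (722) by slope in NSC, BP and NBN, 793 (1603), 223 (366) and 443 (828) for slopes of NSC minus BP, NBN minus BP and NBN minus NSC, and 3769 (5959), 1157 (2430) and 327 (699) for any day in NSC, BP and NBN. A pseudocount of 0.1 called 897 in NSC against BP and 2150 in NBN against NSC. Without E18.5 there were 428 by slope in NBN, 2453, 143 and 19 for the 3 slope differences in the same order, and 371 for any day in NBN. A mean of at least 5 TPM left 391 by slope in NBN, 1054, 196 and 433 for the slope differences, and 1607 and 371 for any day in BP and NBN. Library weights called 663 for NBN minus BP and 2103 for NBN minus NSC slopes, the last day minus the first 759 for NSC minus BP, and leaving out E17.5 1292 and single libraries 499 to 1381 for NBN minus NSC (499 without NSC E18.5 replicate 3, 1381 without NSC E18.5 replicate 1).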

Other observations

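Stress genes outside the immediate early response (the integrated stress response and p53 targets) were called in 1 to 4 members of a list between cell types, where 3.03% of all genes tested were called in NSC against BP, 10.8% in NBN against BP and 8.65% in NBN against NSC. The regulators upstream had 0 or 1. Of 11 tested genes of the integrated stress response, 2 were called higher in NSC than in BP, the serine synthesis genes Phgdh (2.67 ± 0.12) and Psat1 (2.00 ± 0.10), and the same 2 were called lower in NBN than in NSC (-2.57 ± 0.16 and -1.75 ± 0.14). In NBN against BP 2 were called higher, Asns (1.46 ± 0.10) and Vldlr (1.66 ± 0.15). Of 14 p53 targets, 1 was called lower in NSC than in BP, the cell cycle inhibitor Cdkn1a (-1.14 ± 0.13), and in NBN against BP 2 were called higher and 2 lower, with Gtse1 (-1.89 ± 0.12) of smallest p. Of 20 regulators that act upstream of the immediate early genes, in the SRF, CREB and ERK pathways, 0 were called by limma in NSC against BP (11 had an unadjusted p under 0.05), and Elk3, a partner of SRF, was the 1 called in NBN against BP (-1.002 ± 0.13) and in NBN against NSC (-1.76 ± 0.14).

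Over the days in NSC, where 23.0% of all genes were called by slope, 2 of 14 p53 targets rose and 3 fell. Plk3, a kinase of the stress response, had -2.12 ± 0.16, Gtse1 -1.88 ± 0.18 and Cdkn1a -2.74 ± 0.27, and Bbc3, which promotes cell death, rose by 1.68 ± 0.18. In BP, where 11.3% of all genes were called, 3 of 14 fell, Plk3 (-2.58 ± 0.18), Cdkn1a (-3.13 ± 0.30) and Gtse1 (-1.07 ± 0.21). Of 11 genes of the integrated stress response 1 rose and 2 fell in NSC, with Slc7a11, a cystine transporter, at 2.72 ± 0.37, Psat1 at -1.20 ± 0.21 and Phgdh at -1.03 ± 0.25. By any day in NSC 7 of 14 p53 targets and 7 of 11 integrated stress response genes were called, where 39.1% of all genes were.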
